A study of Mus musculus with 6 samples.

Results

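The cytosolic ribosomal protein genes encode the proteins of the ribosome that works in the cytoplasm. They were taken as every entry whose symbol is Rpl or Rps followed by a number (with Rplp0, Rplp1, Rplp2 and Rpsa), without pseudogene rows and without the S6 kinases, where the value averaged 1 FPKM or more across the 6 libraries. FPKM is a count of fragments scaled to transcript length and to all mapped fragments. In all, 81 of the 17169 gene entries were members, 49 of the large 60S subunit and 32 of the small 40S subunit. Every symbol that matched passed the threshold on level; the lowest member was Rpl3l at a mean of 1.48 FPKM, and 0 matched symbols lay under it. The table also holds 70 rows of ribosomal protein pseudogenes, which were not members.

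The libraries come from 3 mouse cell lines of stem cell leukemia and lymphoma (SCLL), a disease of blood progenitors caused by fusions of the receptor tyrosine kinase FGFR1. Per the labels, the lines BBC, ZNF and BCRF8C (BBC2, ZNF112 and BCRF8C in the protocols) were grown from bone marrow of diseased Balb/c mice. Each was kept for 24 h with BGJ398, an inhibitor of FGF receptor kinases, or with DMSO, the solvent. The labels give 1 library per line and agent, so the 3 lines serve as the replicates of the comparison, and a value within 1 line has no replicate. The doses were 30 nM for BBC, 3 nM for ZNF and 1.5 nM for BCRF8C if the order of the doses in the protocol follows the order of the lines, which the labels do not state. Line and dose cannot be told apart. The fusion partner of each line is not given in the sources used here.

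A ribosome carries one copy of nearly every ribosomal protein, and cells make these proteins in matched amounts from many unlinked genes. Their mRNAs are among the most abundant of dividing cells. They begin with a C followed by pyrimidines, the terminal oligopyrimidine (TOP) tract, through which mTORC1 and LARP1 set how well they are translated. The mRNA levels of the family follow growth signals and MYC in many blood cells.

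Values were lower with BGJ398 across most of the table, which bears on every value below. Over the 14232 genes that averaged 1 FPKM or more, the median log2 ratio of BGJ398 over DMSO was -0.91 in BBC, -0.37 in ZNF and -0.76 in BCRF8C, on the log2(FPKM + 1) scale used throughout. The column sums were dominated by a few small RNAs such as Mir5105, at 256788 FPKM with BGJ398 and 1740000 FPKM with DMSO in ZNF. Depth is unknown. The 5 pan-leukocyte markers summed to 247 to 358 FPKM with BGJ398 and 541 to 897 FPKM with DMSO. Among them Coro1a was low in BCRF8C, at 2.85 FPKM with BGJ398 and 1.38 FPKM with DMSO, and Cd53 in ZNF, at 1.45 FPKM with BGJ398 and 3.50 FPKM with DMSO. The 7 B lineage markers summed to 693 FPKM with BGJ398 and 1384 FPKM with DMSO in BBC, and to at most 9.10 FPKM in any library of the other lines. In those lines the sum was higher with BGJ398. It was 7.52 FPKM with BGJ398 and 0.430 FPKM with DMSO in ZNF, and 9.10 and 0.654 FPKM in BCRF8C. The 5 T lineage markers listed were highest in ZNF (544 FPKM with BGJ398 and 866 FPKM with DMSO). Of 6 stromal markers 2 were listed (Col1a1 and Col1a2), and their sum was higher with BGJ398 in all 3 lines, opposite to the ribosomal protein genes: 6.56 FPKM with BGJ398 and 2.82 FPKM with DMSO in BBC, 3.197 FPKM with BGJ398 and 0.372 FPKM with DMSO in ZNF, and 14.9 FPKM with BGJ398 and 1.17 FPKM with DMSO in BCRF8C. Col1a1 rose (adjusted p 0.0449, limma) and Col1a2 did not pass (adjusted p 0.0757, limma), at means of 2.43 and 2.41 FPKM. Genes of low level had higher ratios than abundant ones in general, as given below. Of the myeloid and erythroid markers 3 of 6 and 3 of 5 were listed, with sums of at most 6.94 FPKM and 23.7 FPKM in any library. The myeloid sum was also higher with BGJ398 in all 3 lines. It was 6.94 FPKM with BGJ398 and 6.67 FPKM with DMSO in BBC, 5.02 and 0.0488 FPKM in ZNF, and 6.15 and 2.67 FPKM in BCRF8C. The erythroid sum was lower with BGJ398 in BBC and 0 in the other lines. The part of these markers in the results on ribosomal protein genes was not tested.

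The ribosomal protein genes were lower with BGJ398 as a family, and in the values as deposited by very different amounts in the 3 lines. In BCRF8C the 81 genes summed to 12858 FPKM with BGJ398 and 77542 FPKM with DMSO, so that 16.6% of the DMSO level was left. In BBC the sums were 22117 FPKM with BGJ398 and 84946 FPKM with DMSO, or 26.0%. In ZNF they were 59560 FPKM with BGJ398 and 98300.4 FPKM with DMSO, or 60.6%. In the values as deposited the 3 DMSO sums were thus close to each other, and the lines came apart with BGJ398. The members' share of the whole column's FPKM was no more alike with DMSO. It ran from 2.18% (ZNF) to 4.42% (BCRF8C) with DMSO, and from 2.12% (BCRF8C) to 3.95% (ZNF) with BGJ398. Their share of protein-coding FPKM ran from 13.9% (BCRF8C) to 20.2% (ZNF) with DMSO. With BGJ398 that share ran from 3.43% (BCRF8C) to 11.7% (ZNF). FPKM is relative to the total of each library and does not give the amount of RNA per cell, and in bulk samples fewer cells of a type and less RNA per cell cannot be told apart.

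**Figure D1:**
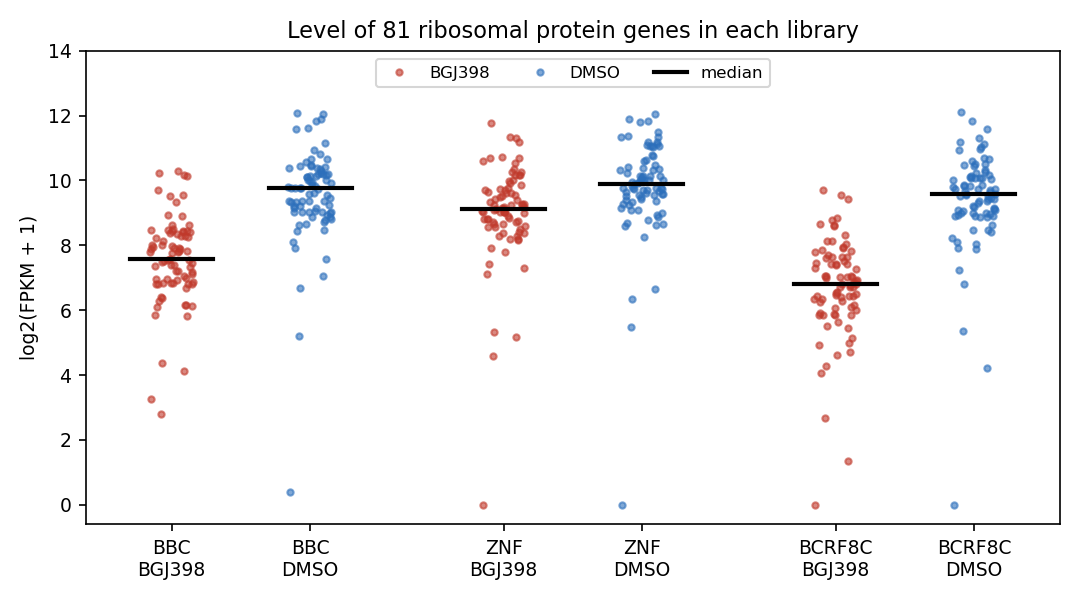
Level of the 81 ribosomal protein genes in the 6 libraries, as log2(FPKM + 1) on the vertical axis; each point is 1 gene, red for BGJ398 and blue for DMSO, and the black bar is the median over genes. The medians were 188 FPKM with BGJ398 and 866 FPKM with DMSO in BBC, 559 FPKM with BGJ398 and 944 FPKM with DMSO in ZNF, and 112 FPKM with BGJ398 and 762 FPKM with DMSO in BCRF8C; the single point at or near 0 is Rpl3l.

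Gene by gene, the median log2 ratio of the members was -2.004 in BBC, -0.77 in ZNF and -2.69 in BCRF8C. The interquartile range of the members was -2.30 to -1.78 in BBC, -0.9998 to -0.57 in ZNF and -3.15 to -2.27 in BCRF8C, so that the range of ZNF did not meet those of the other lines. As deposited, ZNF had the highest ratio of the 3 lines for 80 of 81 members, and for 69 the order was BCRF8C lowest, then BBC, then ZNF. The place of ZNF hung on the scaling. With every column scaled to the same protein-coding FPKM sum, the members' median was -0.75 in BBC, -0.83 in ZNF and -2.12 in BCRF8C. At least a 2-fold lower level (a log2 ratio of -1 or less) was reached by 79 of 81 members in BBC, against 46.5% of all genes tested, by 20 in ZNF, against 14.2%, and by 80 in BCRF8C, against 42.4%. In all 3 lines 79 of 81 members were lower, against 55.7% of all genes. The 2 members that were not lower in all lines were Rps24, level in ZNF, and Rpl3l, which is described with the paralogs. At least a 2-fold higher level was found for 1 member, Rpl3l in BBC, and for none in ZNF or BCRF8C, against 7.72%, 14.6% and 18.4% of all genes.

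With the lines as replicates the family median relative to that of all genes was -1.09 in BBC, -0.40 in ZNF and -1.93 in BCRF8C. The mean of the 3 was -1.14 ± 0.77 (SD, n = 3 lines). An exact two-sided sign-flip permutation test over the 3 lines gave p = 0.25, the smallest p that 3 pairs allow. The direction in a line hung on the scaling in 1 case: when every column was scaled to the same FPKM sum, a sum led by small RNAs, the members' median was -0.67 in BBC, 0.78 in ZNF and -1.17 in BCRF8C, and that of all genes was 0.22, 0.86 and 0.44 in those lines. Relative to all genes the ZNF value was then -0.08.

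**Figure D2:**
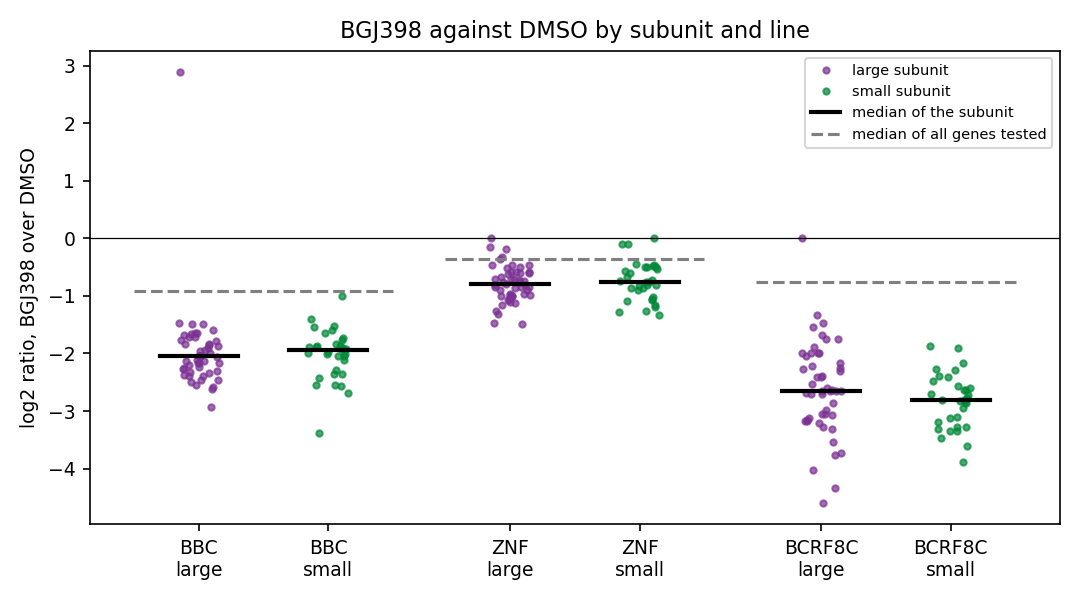
Log2 ratio of BGJ398 over DMSO, on the log2(FPKM + 1) scale, for each ribosomal protein gene by line and subunit; points are genes, the black bar is the median of the subunit and the dashed line the median of all genes tested in that line. The medians of both subunits lie below the dashed line in every line, and the points of BCRF8C spread widest below it; the point near 3 is Rpl3l.

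Per gene, 27 of the 81 members (33.3%) fell across the lines at an adjusted p under 0.05 in the limma fit with the line as a block, and 0 rose. Of all genes 30.2% fell and 6.61% rose by the same test, so the share of members that fell is near the background in this fit. At an unadjusted p under 0.05 the counts were 59 of 81 members and 7812 of 14232 genes, or 72.8% and 54.9%. The 27 comprise 19 of 49 large-subunit and 8 of 32 small-subunit genes, with mean log2 ratios from -2.68 to -1.88 and adjusted p from 0.0348 to 0.0499, and 7 more members had an adjusted p between 0.05 and 0.06. The count hung on which lines were in the fit: it was 0 without BBC, 1 without BCRF8C and 57 without ZNF. Of all 14232 genes 0, 852 and 4795 were then called lower, in the same order. The count of members was 0 after quantile normalization, after median-of-ratios scaling and with a common FPKM sum, against 1, 1 and 31 of all genes. With a common protein-coding sum it was 7, against 1485 of all genes. When the variance was not allowed to vary with level in the fit, 69 members and 3691 of all genes were called lower.

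Abundant genes had lower ratios than scarce ones throughout these libraries, and the ribosomal protein genes are abundant: 71 of 81 averaged 300 FPKM or more. In the highest of 20 equal groups of genes by level, the median log2 ratio of all genes was -1.99 in BBC, -0.85 in ZNF and -2.22 in BCRF8C, while in the lowest group it was 0.57, 0.83 and 1.40. The 71 members at 300 FPKM or more had medians of -1.99 in BBC, -0.76 in ZNF and -2.66 in BCRF8C. For the 94 other protein-coding genes at that level they were -2.18, -0.95 and -2.15 in those lines. With the trend on level taken out within each line, the members' median was -0.01 in BBC, 0.26 in ZNF and -0.45 in BCRF8C. On that scale 43 of 81 members lay below 0 in BBC, 17 in ZNF and 62 in BCRF8C. The mean over the lines was -0.07 ± 0.36 (SD, n = 3 lines; exact two-sided sign-flip permutation p = 0.75), and 0 members passed the limma test, as did 0 of all genes. In BBC the family thus lay on the general trend, in ZNF above it and in BCRF8C below it, each in 1 pair of libraries. The part of expression level in the family's ratios was not tested beyond these values.

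**Figure D3:**
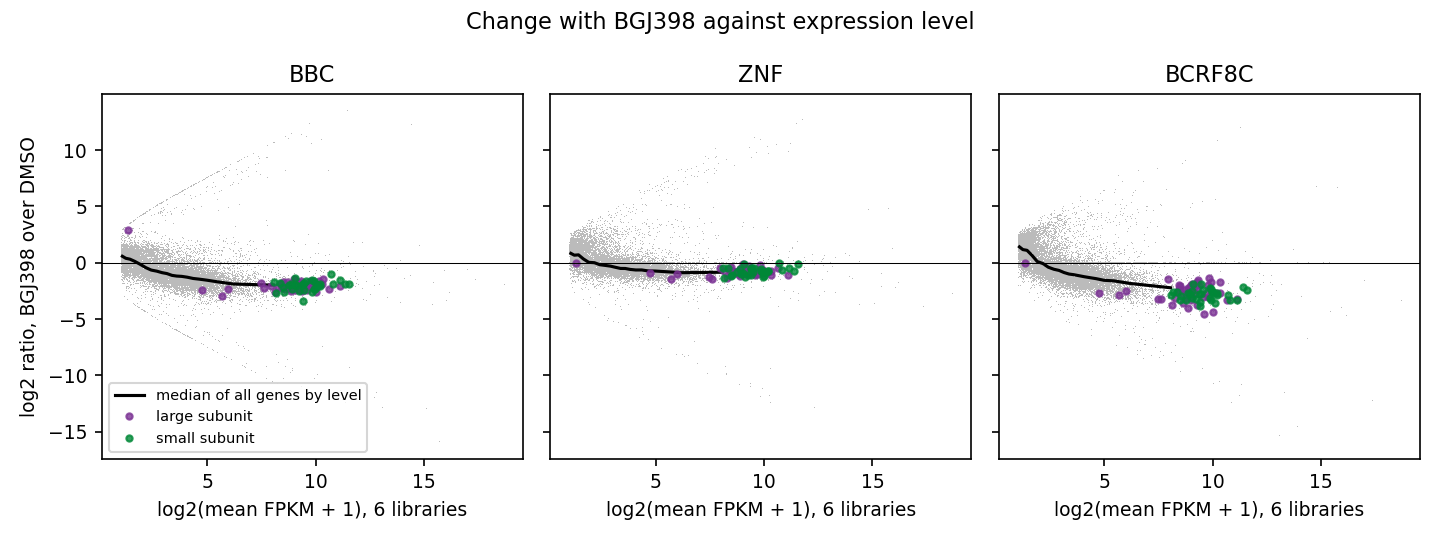
Log2 ratio of BGJ398 over DMSO against the mean level over the 6 libraries, log2(FPKM + 1), in each line; grey points are all 14232 genes tested, the black line is their median in 20 groups by level, and coloured points are the large- and small-subunit genes. The black line drops with level in all 3 lines, and the family sits on it at the right of each panel, somewhat above in ZNF and below in BCRF8C.

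By another measure, the share of protein-coding FPKM that the members held was 9.29% with BGJ398 and 14.9% with DMSO in BBC, 11.7% with BGJ398 and 20.2% with DMSO in ZNF, and 3.43% with BGJ398 and 13.9% with DMSO in BCRF8C. It was lower with BGJ398 in all 3 lines, and BGJ398 minus DMSO had a mean of -8.19 ± 2.43 percentage points (SD, n = 3 lines; exact sign-flip permutation p = 0.25, two-sided, the smallest that 3 pairs allow). Of the whole column, small RNAs included, the share was 2.66% with BGJ398 and 4.05% with DMSO in BBC, 3.95% with BGJ398 and 2.18% with DMSO in ZNF, and 2.12% with BGJ398 and 4.42% with DMSO in BCRF8C. That share was higher with BGJ398 in ZNF alone, where Mir5105 was at 256788 FPKM with BGJ398 and 1740000 FPKM with DMSO.

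Large- and small-subunit genes did not differ in their ratios beyond the spread over the lines. The median log2 ratio was -2.04 for large-subunit genes and -1.95 for small-subunit genes in BBC, -0.80 and -0.76 in ZNF, and -2.65 and -2.81 in BCRF8C. The large minus small difference was -0.09 in BBC, -0.03 in ZNF and 0.16 in BCRF8C, with a mean of 0.01 ± 0.13 (SD, n = 3 lines; exact two-sided sign-flip permutation p = 1). Summed FPKM of large- over small-subunit genes gave 0.902 with BGJ398 and 1.01 with DMSO in BBC, 0.872 with BGJ398 and 0.946 with DMSO in ZNF, and 1.26 with BGJ398 and 1.07 with DMSO in BCRF8C. The ratio was lower with BGJ398 in BBC and ZNF and higher in BCRF8C, and these ratios within a library do not depend on its scale. Their log2 change had a mean of -0.02 ± 0.22 (SD, n = 3 lines; exact permutation p = 1, two-sided).

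At the low end of the family by mean ratio stood Rpl18, Rpl8, Rpl13, Rps2, Rpl22l1 and Rpl15. Rpl18, a 60S protein, had 167 FPKM with BGJ398 against 922 with DMSO in BBC, 777 with BGJ398 against 1554 with DMSO in ZNF and 48.5 with BGJ398 against 1192.5 with DMSO in BCRF8C. Its log2 ratio was -2.46 in BBC, -0.9998 in ZNF and -4.59 in BCRF8C, with a mean of -2.68 ± 1.81 (SD, n = 3 lines) with an adjusted p of 0.0462 in limma. Rpl18 had the lowest ratio of all members in BCRF8C, and in ZNF it was about 2-fold lower. Rpl8, which sits beside the peptidyl transferase centre, had 228 FPKM with BGJ398 against 1376.5 with DMSO in BBC, 1143.0 with BGJ398 against 2228.5 with DMSO in ZNF and 56.2 with BGJ398 against 1160.3 with DMSO in BCRF8C; the adjusted p was 0.0478. Rpl13 had 114 FPKM with BGJ398 against 653 with DMSO in BBC, 381 with BGJ398 against 856 with DMSO in ZNF and 45.0 with BGJ398 against 747 with DMSO in BCRF8C; it was below the family median in every line and its adjusted p was 0.0379. In the values as deposited the 3 genes share the same order, with BCRF8C lowest relative to DMSO and ZNF least changed. The locus listed for the Rpl13 entry spans 4435 kb, for a transcript of 780 bases. Whether its FPKM holds reads of other genes was not tested.

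Rps2, at the mRNA entry of the small subunit, had 82.8 FPKM with BGJ398 against 872 with DMSO in BBC, 605 with BGJ398 against 916 with DMSO in ZNF and 128 with BGJ398 against 1422 with DMSO in BCRF8C. Its log2 ratio of -3.38 was the lowest of all members in BBC, whereas -0.60 in ZNF was above the family median. Rpl15, a 60S protein and one of the genes of Diamond-Blackfan anemia in people, had 70.7 FPKM with BGJ398 against 438 with DMSO in BBC, 294 with BGJ398 against 493.0 with DMSO in ZNF and 25.03 with BGJ398 against 354 with DMSO in BCRF8C, and fell with an adjusted p of 0.0412. The other members called included Rpl36, Rpl36al, Rps21, Rps14, Rps13, Rps27l, Rpl27, Rps18, Rps27a, Rpl37a, Rpl34, Rpl35a, Rplp2, Rpl37, Rpl7l1, Rpl9, Rpl11, Rpl29, Rpl30 and Rpl3. Of the 12 genes named by rule that were called, none kept its call under quantile normalization, median-of-ratios scaling, a common FPKM sum or removal of the trend on level.

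The high end included Rpl3l, Rpl17, Rpl23, Rps24 and Rpl21, none of which passed the test. Rpl17, whose protein lines the exit of the nascent chain, had 485 FPKM with BGJ398 against 1524 with DMSO in BBC, 851 with BGJ398 against 971 with DMSO in ZNF and 436 with BGJ398 against 1106 with DMSO in BCRF8C. Its mean log2 ratio was -1.06 ± 0.77 (SD, n = 3 lines) with an adjusted p of 0.236 in limma. Rpl23, on the face of the 60S subunit that Eif6 covers, had 277 FPKM with BGJ398 against 876 with DMSO in BBC, 694 with BGJ398 against 872 with DMSO in ZNF and 277 with BGJ398 against 808 with DMSO in BCRF8C. The level of Rpl17 and Rpl23 with BGJ398 in BCRF8C was thus close to that in BBC, unlike the family as a whole. Rps24, which is spliced into several isoforms, had 1132 FPKM with BGJ398 against 2258 with DMSO in BBC, 2335 with BGJ398 against 2330.4 with DMSO in ZNF and 226 with BGJ398 against 1623 with DMSO in BCRF8C. It kept its DMSO level in ZNF and about a 2-fold lower level in BBC, the highest ratio of the members in both lines other than Rpl3l, but its log2 ratio of -2.84 in BCRF8C was below the family median. Rpl21 had 114 FPKM with BGJ398 against 469.9 with DMSO in BBC, 223 with BGJ398 against 306 with DMSO in ZNF and 93.7 with BGJ398 against 260.1 with DMSO in BCRF8C.

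No member departed from the family by at least 1 log2 unit on the same side in all 3 lines. Rpl13 came near to it, at least 0.40 below the family median in every line. Rpl3l has no measured ratio in ZNF and BCRF8C, where it is listed at 0, so its distance there only restates the family median. Across the 80 members without Rpl3l, the log2 ratios of 2 lines were correlated with Pearson's r of 0.47 (BBC and ZNF), 0.46 (BBC and BCRF8C) and 0.39 (ZNF and BCRF8C). These are correlations over genes, which share libraries and are not independent.

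By role, the acidic P stalk, which recruits the GTPase translation factors, lay below the family median in BBC and BCRF8C and not in ZNF. Its 4 genes (Rplp0, Rplp1, Rplp2 and Rpl12) had medians of -2.28 in BBC, -0.70 in ZNF and -3.11 in BCRF8C, and 1 of 4 (Rplp2) passed the test. Counts by role are to be read against the 30.2% of all genes that fell in the same test. Rplp1 had 749 FPKM with BGJ398 against 3808 with DMSO in BBC, 1479 with BGJ398 against 2084 with DMSO in ZNF and 129 with BGJ398 against 1287 with DMSO in BCRF8C. Rplp0, the stalk base, had 249 FPKM with BGJ398 against 1119 with DMSO in BBC, 517 with BGJ398 against 1112 with DMSO in ZNF and 165 with BGJ398 against 1383 with DMSO in BCRF8C. Rplp0, Rplp1 and Rplp2 had lower log2 ratios than Rpl12 in BCRF8C, where that of Rpl12 was -2.25. The 5S particle, Rpl5 and Rpl11, also binds MDM2 when ribosome assembly stalls. Rpl11 fell, with 110.0 FPKM with BGJ398 against 573 with DMSO in BBC, 376 with BGJ398 against 674 with DMSO in ZNF and 75.3 with BGJ398 against 489.9 with DMSO in BCRF8C (adjusted p 0.0460, limma). Rpl5 had 259 FPKM with BGJ398 against 878 with DMSO in BBC, 449 with BGJ398 against 623 with DMSO in ZNF and 176 with BGJ398 against 855 with DMSO in BCRF8C, which did not pass (adjusted p 0.0963).

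For the peptide exit tunnel 8 genes were listed (Rpl4, Rpl17, Rpl19, Rpl23a, Rpl26, Rpl31, Rpl35 and Rpl39). They had the highest median of the 5 role groups in BCRF8C. The median was -1.75 in BBC, -0.68 in ZNF and -2.08 in BCRF8C, and 0 of 8 passed the test. With the trend on level removed their medians were 0.24, 0.38 and 0.24, above 0 in all lines. Rpl4 had 359 FPKM with BGJ398 against 1395.0 with DMSO in BBC, 831 with BGJ398 against 1349.5 with DMSO in ZNF and 455 with BGJ398 against 1461 with DMSO in BCRF8C. Rpl19 was the exception within the group in BCRF8C, with 172 FPKM with BGJ398 and 1461 FPKM with DMSO. Summed over the 8 genes, the level in BCRF8C was 24.6% of the DMSO level, against 16.6% for the family; that difference is a single pair of libraries and was not tested.

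Of the 14 genes of the 40S head, 2 passed the test (Rps18 and Rps27a), with medians of -1.94 in BBC, -0.78 in ZNF and -2.79 in BCRF8C. Rps12 was the most abundant of them, with 1159 FPKM with BGJ398 against 4227 with DMSO in BBC, 2558 with BGJ398 against 4242 with DMSO in ZNF and 683 with BGJ398 against 3070.2 with DMSO in BCRF8C. Rps15 had 832 FPKM with BGJ398 against 3078 with DMSO in BBC, 1653 with BGJ398 against 2636 with DMSO in ZNF and 233 with BGJ398 against 2319.7 with DMSO in BCRF8C. Rps20 had log2 ratios that lay close together, with -1.99 in BBC, -1.29 in ZNF and -1.88 in BCRF8C. Of the 12 members tied to Diamond-Blackfan anemia, an inherited failure of red cell production, 3 passed (Rpl11, Rpl15 and Rpl35a), against 30.2% of all genes, with medians of -1.89, -0.77 and -2.71 in the 3 lines. Rps26 of that list had 1189.8 FPKM with BGJ398 against 4360.0 with DMSO in BBC, 3528 with BGJ398 against 3780.2 with DMSO in ZNF and 841 with BGJ398 against 4409 with DMSO in BCRF8C, and was nearly level in ZNF.

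The table lists 5 paralogs, which can take the place of their parent protein in a ribosome or work in its assembly: Rpl22l1, Rps27l, Rpl36al, Rpl7l1 and Rpl3l. The first 4 fell with BGJ398, with adjusted p from 0.0348 to 0.0350 in limma, and of the 9 parent genes listed for such paralogs 1 (Rpl3) did, against 30.2% of all genes. The median level was 50.4 FPKM for the paralogs and 627 FPKM for the parents, and the difference between these counts was not tested. Rpl22l1, whose product binds RNA like Rpl22, had 16.4 FPKM with BGJ398 against 131 with DMSO in BBC, 35.3 with BGJ398 against 100.2 with DMSO in ZNF and 1.54 with BGJ398 against 17.4 with DMSO in BCRF8C. As a share of Rpl22 it was 8.94% with BGJ398 and 25.4% with DMSO in BBC, 6.31% with BGJ398 and 10.6% with DMSO in ZNF, and 0.736% with BGJ398 and 2.26% with DMSO in BCRF8C. Rpl22l1 thus had a lower ratio than its parent in every line, and BCRF8C had the least of it with either agent. Rpl22 itself had 184 FPKM with BGJ398 against 518 with DMSO in BBC, 559 with BGJ398 against 944 with DMSO in ZNF and 209 with BGJ398 against 771 with DMSO in BCRF8C, one of the higher ratios of the family (adjusted p 0.0977).

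Rps27l, a target of p53, had 68.8 FPKM with BGJ398 against 446 with DMSO in BBC, 157 with BGJ398 against 399 with DMSO in ZNF and 89.5 with BGJ398 against 548 with DMSO in BCRF8C. Against Rps27 it stood at 5.44% with BGJ398 and 12.2% with DMSO in BBC, 6.06% with BGJ398 and 10.8% with DMSO in ZNF, and 45.4% with BGJ398 and 27.2% with DMSO in BCRF8C. The share was lower with BGJ398 in BBC and ZNF and higher in BCRF8C, where Rps27 had 197 FPKM with BGJ398 and 2013 FPKM with DMSO. Rpl36al had 56.3 FPKM with BGJ398 against 275 with DMSO in BBC, 137 with BGJ398 against 382 with DMSO in ZNF and 29.3 with BGJ398 against 273 with DMSO in BCRF8C, and its share of Rpl36a was lower with BGJ398 in all 3 lines. Rpl7l1, with 6.02 FPKM with BGJ398 against 35.7 with DMSO in BBC, 23.2 with BGJ398 against 44.0 with DMSO in ZNF and 5.34 with BGJ398 against 40.2 with DMSO in BCRF8C, was at most 4.85% of Rpl7 in any library. A short read from a near-identical stretch can be assigned to either paralog, and how the authors' program divided such reads is not given in the sources used here.

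**Figure D4:**
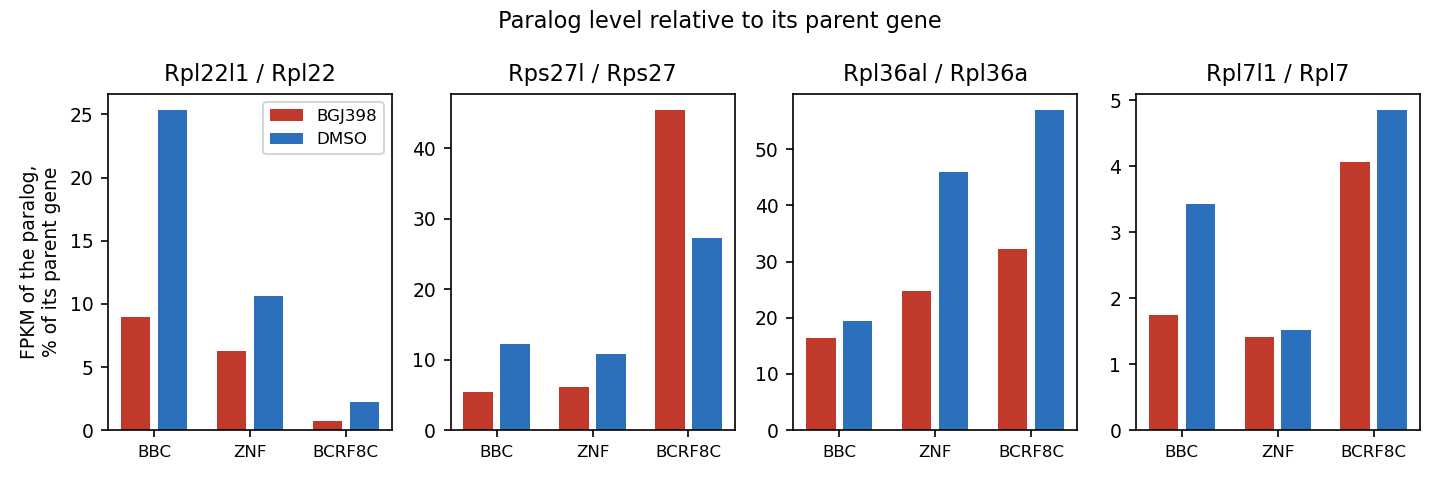
Level of 4 paralogs as a percentage of the FPKM of their parent gene, by line, with BGJ398 in red left of DMSO in blue; 1 library per bar, and each panel has its own axis from 0. Rpl22l1, Rpl36al and Rpl7l1 make up less of their parent with BGJ398 in all 3 lines, while Rps27l does so in BBC and ZNF and not in BCRF8C.

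Rpl3l, the Rpl3 paralog of skeletal and heart muscle, was the one member higher with BGJ398. It had 8.60 FPKM with BGJ398 and 0.301 FPKM with DMSO in BBC and was listed at 0 in all 4 libraries of ZNF and BCRF8C. A value rests on 1 pair of libraries, and the gene did not pass the test (adjusted p 0.302, limma). Even with BGJ398 it was 7.51% of Rpl3 in BBC.

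The order of the genes by level was largely kept with BGJ398. Across 80 members, log2 levels with BGJ398 and with DMSO were correlated with r of 0.96 in BBC, 0.97 in ZNF and 0.89 in BCRF8C, over genes that share a line. Between the DMSO libraries of 2 lines r was 0.80 to 0.90. The 6 most abundant members by FPKM, a measure per length, were Rps26, Rps12, Rps27, Rpl41, Rps15 and Rps24. Rps26 led in BBC and BCRF8C with DMSO, at 4360.0 and 4409 FPKM, and Rps12 in ZNF at 4242 FPKM. Rpl41, the shortest ribosomal protein, had 732 FPKM with BGJ398 against 3163 with DMSO in BBC, 1707 with BGJ398 against 3608 with DMSO in ZNF and 389.5 with BGJ398 against 3612.0 with DMSO in BCRF8C. Rps27 had 1265 FPKM with BGJ398 against 3644 with DMSO in BBC, 2593 with BGJ398 against 3675 with DMSO in ZNF and 197 with BGJ398 against 2013 with DMSO in BCRF8C.

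Between the DMSO libraries of the 3 lines, the highest and the lowest level of a member differed by a median of 0.65 log2 units, and 57 of 80 members lay within a 2-fold range. ZNF was highest for 44 of 80 and BCRF8C lowest for 42. Differences over 4-fold were found for 3 members, Rpl22l1, Rpl34 and Rps20, each lowest in BCRF8C with DMSO. Rpl34 had 242 FPKM with BGJ398 against 998 with DMSO in BBC, 519 with BGJ398 against 1040.0 with DMSO in ZNF and 23.6 with BGJ398 against 237 with DMSO in BCRF8C, and Rps20 had 222 FPKM with BGJ398 against 886 with DMSO in BBC, 528 with BGJ398 against 1288.5 with DMSO in ZNF and 80.98 with BGJ398 against 300.2 with DMSO in BCRF8C. Rpl7 had 344 FPKM with BGJ398 against 1039.8 with DMSO in BBC, 1645 with BGJ398 against 2886.0 with DMSO in ZNF and 131 with BGJ398 against 828 with DMSO in BCRF8C, with ZNF high under both agents. With 1 library per line, these differences between lines carry no replicate error.

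Processed pseudogenes of ribosomal protein genes match their parents closely, and reads can fall on either. Of the 70 pseudogene rows, summed over all, the level was 2.68% of that of the members with BGJ398 and 2.75% with DMSO in BBC, 3.04% with BGJ398 and 3.37% with DMSO in ZNF, and 4.35% with BGJ398 and 3.53% with DMSO in BCRF8C. For most genes the overlap was small, but 3 of the 39 members with such a row had rows above 50% of the gene in some library: Rpl34, Rps24 and Rplp2. Rpl34-ps1 had 2.13 FPKM with BGJ398 against 12.1 with DMSO in BBC, 6.93 with BGJ398 against 21.3 with DMSO in ZNF and 51.7 with BGJ398 against 492 with DMSO in BCRF8C. In BCRF8C the pseudogene row was thus at 219.6% of Rpl34 with BGJ398 and 207.2% with DMSO, where in BBC it was at 0.882% with BGJ398 and 1.21% with DMSO. The low level of Rpl34 in BCRF8C stands beside a high level of its pseudogene row in both libraries of the line. Rps24-ps3 had 54.7 FPKM with BGJ398 against 98.9 with DMSO in BBC, 98.8 with BGJ398 against 84.0 with DMSO in ZNF and 327 with BGJ398 against 693 with DMSO in BCRF8C. With all its pseudogene rows added, Rps24 had a log2 ratio of -2.06 in BCRF8C in place of -2.84, and 0.02 in ZNF. Rpl19-ps11 had 21.7 FPKM with BGJ398 and 405 FPKM with DMSO in BCRF8C. Whether these rows hold reads of the parent genes was not tested. Of the 54 rows tested 22 fell and 0 rose, against 30.2% of all genes that fell and 6.61% that rose. Of the 42 members with no pseudogene row 11 fell, to be read against the same 30.2%. The median log2 ratio of those 42 members was -1.77.

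The start of each transcript was looked up because the members moved together and share the TOP tract by description. RefSeq promoters (GRCm38.p6, 250 bases before to 50 after the annotated start, 1 entry per gene) were at hand for 60 of the 81 members. In the 30 bases on either side of the start, a C followed by at least 5 bases that are C or T was found on the coding strand in 42 of 60 members (70.0%) and in 40.1% of all genes. Over the whole 300 bases and both strands, CCGGAAG was found in 23 members (38.3%) and in 9.12% of all genes, GGGCGG in 36 (60.0%) and in 35.9%, and CTCGCGAGA in 6 (10.0%) and in 0.718%. AAGATGGC was found in 4 (6.67%) and in 2.88%, CACGTG in 4 (6.67%) and in 7.24%, and TATAAA in 6 (10.0%) and in 14.2%. The median log2 ratio of the members with the pyrimidine run and of those without was -2.01 and -2.02 in BBC, -0.72 and -0.86 in ZNF, and -2.71 and -2.74 in BCRF8C. For members with CCGGAAG and without it the medians were -2.11 and -2.004 in BBC, -0.76 and -0.73 in ZNF, and -2.69 and -2.77 in BCRF8C. For members with GGGCGG and without it they were -2.14 and -1.86 in BBC, -0.83 and -0.71 in ZNF, and -2.87 and -2.61 in BCRF8C, lower with the motif in each line. For the 6 members with CTCGCGAGA and those without it they were -1.92 and -2.04 in BBC, -0.58 and -0.76 in ZNF, and -2.26 and -2.79 in BCRF8C, higher with the motif in each line. None of these differences was tested. A match is a string of letters and not a bound site, and the annotated start can lie some bases from the true one.

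The windows from 30 bases before to 30 bases from the annotated start are shown for the members at the 2 ends of the family and for the paralog pairs, 5′ to 3′ on the coding strand, with the longest pyrimidine run that begins with C in capitals (of equal runs, the one farther upstream). The low end comes first.
Rpl18 (chr7:45718041-45718100, plus strand): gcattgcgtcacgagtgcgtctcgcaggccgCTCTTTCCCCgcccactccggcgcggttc
Rpl13 (chr8:123102320-123102379, plus strand): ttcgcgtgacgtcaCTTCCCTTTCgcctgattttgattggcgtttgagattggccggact
Rps2 (chr17:24720033-24720092, plus strand): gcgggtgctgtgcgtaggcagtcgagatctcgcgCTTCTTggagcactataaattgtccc
Rpl15 (chr14:18270957-18271016, minus strand): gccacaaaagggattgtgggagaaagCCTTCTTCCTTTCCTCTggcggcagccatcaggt
Rpl18, Rpl13 and Rpl15 each have a run of at least 10 bases, and Rps2 one of 6. The runs of Rpl18 and Rps2 begin behind the annotated start, that of Rpl13 ends before it and that of Rpl15 spans it. At the high end and for Rpl34 the windows are as follows.
Rps24 (chr14:24490648-24490707, plus strand): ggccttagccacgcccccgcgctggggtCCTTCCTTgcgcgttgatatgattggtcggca
Rpl23 (chr11:97782410-97782469, minus strand): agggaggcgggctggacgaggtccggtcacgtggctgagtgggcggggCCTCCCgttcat
Rpl34 (chr3:130730369-130730428, minus strand): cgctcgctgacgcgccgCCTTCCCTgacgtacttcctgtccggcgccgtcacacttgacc
Rps24 and Rpl34 have runs of 8 bases, and Rpl23 one of 6 that lies behind the start. The run of Rps24 spans the annotated start and that of Rpl34 ends before it. Each paralog is given before its parent, where both had an entry.
Rpl22l1 (chr3:28805478-28805537, plus strand): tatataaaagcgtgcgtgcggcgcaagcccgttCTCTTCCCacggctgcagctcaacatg
Rpl22 (chr4:152325696-152325755, plus strand): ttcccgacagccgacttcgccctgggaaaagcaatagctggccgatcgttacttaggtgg
Rps27l (chr9:66946056-66946115, plus strand): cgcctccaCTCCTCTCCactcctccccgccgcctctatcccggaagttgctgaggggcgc
Rps27 (chr3:90213619-90213678, minus strand): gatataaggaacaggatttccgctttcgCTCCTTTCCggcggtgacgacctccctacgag
Rpl36al (chr12:69184038-69184097, minus strand): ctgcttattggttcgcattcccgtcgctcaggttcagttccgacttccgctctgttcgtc
Rpl36a (chrX:134585624-134585683, plus strand): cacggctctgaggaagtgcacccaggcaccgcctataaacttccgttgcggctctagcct
Rpl7l1 (chr17:46782627-46782686, minus strand): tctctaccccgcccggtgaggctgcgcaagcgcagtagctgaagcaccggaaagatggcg
Rpl3l (chr17:24727796-24727855, plus strand): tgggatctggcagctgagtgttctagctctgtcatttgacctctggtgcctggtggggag
Rpl22l1, Rps27l and Rps27 hold such a run of 8 or 9 bases, and Rpl22, Rpl36al, Rpl36a, Rpl7l1 and Rpl3l hold none in the window. The run of Rpl22l1 begins behind the annotated start, that of Rps27l ends before it and that of Rps27 spans it. Rps27l holds another run of 9 bases, not in capitals, nearer the start. Of the 4 paralogs that fell, 2 hold a run and 2 do not.

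GC content of the transcripts went with the ratio most in BCRF8C. There the 27 members of highest GC content (median 55.7%) had a median log2 ratio of -3.08, the 26 in the middle -2.71 and the 27 of lowest (median 46.6%) -2.48. In BBC the groups, from high to low GC content, had medians of -2.06, -2.11 and -1.95, and in ZNF of -0.81, -0.78 and -0.75. Over 80 members Pearson's r between ratio and GC content was -0.33 in BCRF8C, -0.09 in BBC and -0.08 in ZNF. For the 11318 protein-coding genes tested it was -0.12, -0.06 and 0.06 in those lines. GC content came from the GENCODE vM21 transcripts, of another build, and the part of it in the result was not tested.

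Fau, which encodes a ribosomal protein fused to a ubiquitin-like protein, had 176 FPKM with BGJ398 against 639.9 with DMSO in BBC, 382 with BGJ398 against 700.2 with DMSO in ZNF and 55.3 with BGJ398 against 544.0 with DMSO in BCRF8C (adjusted p 0.0519, limma). Of 21 other genes with TOP mRNAs, such as elongation factors, 4 fell (Eef1d, Eef1g, Eif4b and Vim), 0 rose and 17 did not pass, against 30.2% of all genes that fell and 6.61% that rose. Eef1a1, the most abundant of them, had 1258 FPKM with BGJ398 against 5609.5 with DMSO in BBC, 3185 with BGJ398 against 5012 with DMSO in ZNF and 1412 with BGJ398 against 5176 with DMSO in BCRF8C. Npm1, a nucleolar chaperone, had 57.0 FPKM with BGJ398 against 499.96 with DMSO in BBC, 389 with BGJ398 against 714 with DMSO in ZNF and 244 with BGJ398 against 886 with DMSO in BCRF8C. The TOP genes' medians of -2.03, -0.80 and -2.10 were near those of the family in BBC and ZNF and less low in BCRF8C.

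Of 20 assembly and export factors for ribosomal proteins, 17 fell, 0 rose and 3 (Nmd3, Sbds and Eftud1) did not pass, against 30.2% of all genes that fell and 6.61% that rose. Such counts rest on the scaling: over all genes the calls for lower were 4295 as deposited and 1 after quantile normalization or median-of-ratios scaling. Grwd1, the chaperone of Rpl3, had 1.02 FPKM with BGJ398 against 13.8 with DMSO in BBC, 11.7 with BGJ398 against 32.7 with DMSO in ZNF and 1.94 with BGJ398 against 31.2 with DMSO in BCRF8C. Ipo5, an import receptor, had 7.91 FPKM with BGJ398 against 82.0 with DMSO in BBC, 45.3 with BGJ398 against 108 with DMSO in ZNF and 22.0 with BGJ398 against 117 with DMSO in BCRF8C. The median was -2.23 in BBC, -0.77 in ZNF and -2.03 in BCRF8C, which is below the members' median in BBC, at it in ZNF and above it in BCRF8C. Another list held 14 genes of the mTORC1 pathway and of S6 kinases. Of these 7 fell (Rheb, Tsc2, Rps6ka1, Larp1, Eif4ebp1, Eif4ebp2 and Eif4e) and 0 rose, against 30.2% and 6.61% of all genes. Eif4ebp1, a translation repressor that mTORC1 turns off, had 4.52 FPKM with BGJ398 against 55.7 with DMSO in BBC, 23.0 with BGJ398 against 81.9 with DMSO in ZNF and 2.12 with BGJ398 against 72.0 with DMSO in BCRF8C. Its log2 ratio averaged -3.23 ± 1.39 over the lines (SD, n = 3) at an adjusted p of 0.0348 in limma. Larp1, which binds TOP mRNAs, had 4.37 FPKM with BGJ398 against 25.8 with DMSO in BBC, 13.9 with BGJ398 against 27.6 with DMSO in ZNF and 17.2 with BGJ398 against 51.5 with DMSO in BCRF8C. Mtor had 25.4 FPKM with BGJ398 against 23.4 with DMSO in BBC, 5.60 with BGJ398 against 10.8 with DMSO in ZNF and 7.29 with BGJ398 against 10.3 with DMSO in BCRF8C and did not pass (adjusted p 0.338).

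The mitochondrial ribosome has protein genes of its own, and 76 of them were tested. Of the 81 cytosolic genes 27 fell and 0 rose, while of the 76 mitochondrial genes 72 fell and 1 (Mrpl48) rose; of all genes 30.2% fell and 6.61% rose. Yet the mean ratio over the lines had a median of -1.88 for the cytosolic and -1.80 for the mitochondrial genes. By line the median was -2.004 for the cytosolic and -2.21 for the mitochondrial genes in BBC, -0.77 for the cytosolic and -0.98 for the mitochondrial genes in ZNF, and -2.69 for the cytosolic and -2.22 for the mitochondrial genes in BCRF8C. The SD over the lines had a median of 0.99 for the cytosolic and 0.74 for the mitochondrial genes, against 0.59 for all genes, and the median level was 573 FPKM for the cytosolic and 24.9 FPKM for the mitochondrial genes. With the trend on level removed, the median was -0.08 for the cytosolic and -0.61 for the mitochondrial genes. In the limma fit the variance was also allowed to vary with level. Without that, 69 of 81 cytosolic genes were called lower in place of 27, and 3691 of all 14232 genes in place of 4295. Mrps12 had 2.93 FPKM with BGJ398 against 31.6 with DMSO in BBC, 20.1 with BGJ398 against 44.8 with DMSO in ZNF and 2.55 with BGJ398 against 75.8 with DMSO in BCRF8C, and Mrpl48, which rose, had 234 FPKM with BGJ398 against 79.7 with DMSO in BBC, 143 with BGJ398 against 50.9 with DMSO in ZNF and 136 with BGJ398 against 24.1 with DMSO in BCRF8C. The difference between the 2 sets was not tested.

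**Figure D5:**
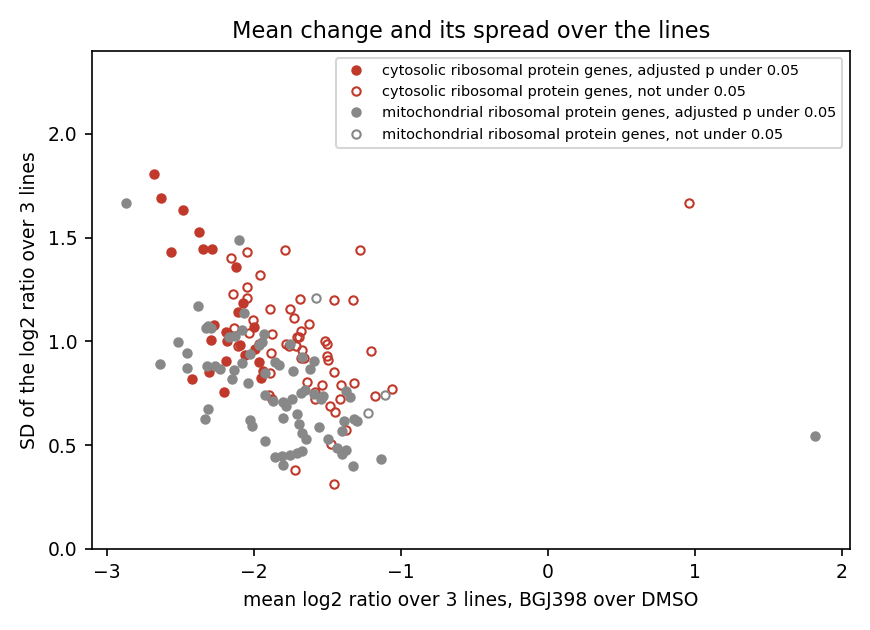
Mean log2 ratio of BGJ398 over DMSO across the 3 lines (horizontal) against its SD over the lines (vertical), for the cytosolic (red) and mitochondrial (grey) ribosomal protein genes; filled points had an adjusted p under 0.05. Both sets lie near -1.8, the cytosolic genes with a larger SD, 0.99 against 0.74 in the median; the points at the right are Rpl3l (open) and Mrpl48 (filled).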

How the data were processed

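RNA of 6 libraries was sequenced by the authors, who deposited 1 table of FPKM values with 17169 gene entries. Tools named in the submitters' processing notes are TopHat2 2.0.12 and bcl2fastq, and the build is NCBIM37. Nothing is said there of the program that computed FPKM, its annotation, strand or depth (not given in the sources used here), so no counting error was computed. Each of the 6 value columns matched the title of 1 sample.

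Values were analysed as log2(FPKM + 1), a scale that understates the change of low genes, without rescaling. The 14232 genes averaging 1 FPKM or more were fitted in limma (3.58.1, R 4.3.3; trended eBayes), BGJ398 against DMSO, with the line as a block, and two-sided p-values were adjusted by Benjamini-Hochberg over all of them; 2 residual degrees of freedom remain. The 2 libraries of a line come from the same cell line, and their deviations from the group means correlated with 0.454 (BBC), 0.541 (ZNF) and 0.549 (BCRF8C). Lines are not repeat cultures, and p-values measure the spread between them. The script was tested on simulated data. The members and gene lists were chosen with earlier results of these data known. Genes named are the 6 of highest level, the 6 of lowest and the 6 of highest mean ratio, the 3 nearest to leaving the family trend, paralogs with parents, the 5 that vary most between DMSO libraries, and the 3 most abundant of each role list; of other lists, the 3 most abundant and any called gene. Other members and genes named were chosen after their values were seen. Alternatives varied scaling, the trend on level, pseudocount (0.1), filter (5 FPKM or none), block, variance trend and lines; a common protein-coding sum, the share of protein-coding FPKM and omission of Rpl3l were chosen after seeing the data. Some genes that the rule names are not reported here.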

Additional observations from a re-analysis of the deposited data

Results flagged for a closer look

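Rps24 had log2 ratios of -0.995 in BBC, 0.00266 in ZNF and -2.84 in BCRF8C, and is listed because the sign in ZNF was opposite to that in BBC and BCRF8C; the difference between lines was not tested, with 1 pair of libraries per line. The value in ZNF is a level of 2335 FPKM with BGJ398 and 2330.4 FPKM with DMSO. In BCRF8C the pseudogene rows of Rps24 summed to 144.8% of the gene with BGJ398 and 42.7% with DMSO, against 3.67% to 5.32% in the libraries of the other lines.

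The share of the whole column's FPKM held by the ribosomal protein genes, BGJ398 minus DMSO, was -1.38 percentage points in BBC, 1.77 in ZNF and -2.30 in BCRF8C, again with opposite signs and not tested between lines. As a share of protein-coding FPKM the difference was -5.61, -8.52 and -10.4 percentage points in those lines, all of 1 sign.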

How the results depend on the processing

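The count of 27 members called lower was 0 after quantile normalization, median-of-ratios scaling, a common FPKM sum, removal of the trend on level or without the line as a replicate block (unpaired fit), 7 with a common protein-coding sum, 69 without a variance trend, and 11 among the 42 members with no pseudogene row. Of all genes, 3691 were called lower without a variance trend and 1 in the unpaired fit. Leaving out 1 line gave 0 to 57 members (0 without BBC, 1 without BCRF8C, 57 without ZNF). Of all genes 0, 852 and 4795 were then called lower, in that order. With 2 lines 1 residual degree of freedom is left. The count of members was 31 with a pseudocount of 0.1, 33 at a mean of at least 5 FPKM and 24 with no filter. In those settings 4151 of 14232, 4910 of 9109 and 3979 of 17169 genes were called lower. Over all genes, 4295 called lower became 1, 1, 31, 1485 and 0 under the 4 scalings and the trend removal in the order quantile, median-of-ratios, FPKM sum, protein-coding sum, trend; the genes called higher, 941, became 2, 13, 1958, 1395 and 0. No member was called higher under any alternative run. The median of the members' mean ratios (-1.88, and -1.19 relative to all genes) was -0.49 and -0.39 after quantile normalization, -0.40 with a common FPKM sum, and -0.079 and -0.11 with the trend on level removed; it stayed below 0 under every alternative run. Scaling moved the median of all genes from -0.69 to -0.09, 0.03, 0.53 and -0.20 in the order above. The large minus small difference ran from -0.017 to 0.14 when 1 line was left out. The mean difference in share, -0.638 percentage points of the whole column, was -8.19 of protein-coding FPKM. The cause of these shifts was not tested. Of the 35 members named by rule, 12 were called; all 12 lost the call under quantile, median-of-ratios and FPKM-sum scaling, trend removal, no block and without BBC, 11 without BCRF8C and 8 with a protein-coding sum. With depth unknown, no limit on low members such as Rpl3l can be given.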
